A study of Mus musculus with 4 samples.

Results

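The response of wild type (WT) pancreatic islets to refeeding was read from 2 of the 4 RNA sequencing libraries of the series, those titled as fasted WT and as refed WT. Both came from mice of strain C57BL/6 with no mutation named for the WT genotype. The titles give a fast of 48 h and, for the refed mice, 6 h of refeeding after it, whereas the extraction protocol gives a fast of 24 h, and the labels do not settle which holds. Islets of 3 mice were combined per genotype, so each library is 1 pool and each feeding state has 1 library. The other 2 libraries are the same feeding states in KR mutant mice, a knock-in in which, from what is known of the study, lysines of the transcription factor FoxO1 that can be acetylated are arginines. They are used here as a second pair beside the WT pair, with other mice in it. Because no feeding state has a replicate library, no difference given here has a replicate check, and no p-value is given.

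Islets are the clusters of endocrine cells in the pancreas, in which beta cells secrete insulin, alpha cells glucagon, delta cells somatostatin and PP cells pancreatic polypeptide. Fasting lowers blood glucose and insulin demand, and a meal brings glucose and amino acids to which beta cells answer with insulin secretion and with new transcription. One branch of the stress response of these cells runs through the kinases that phosphorylate the initiation factor eIF2, after which the transcription factor ATF4 is translated and turns on genes for amino acid uptake, amino acid synthesis and tRNA charging. The factors ChREBP and MondoA carry the glucose signal to genes such as Txnip.

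All values are FPKM as deposited, that is fragments scaled by transcript length and library total, so that levels of different genes can be set side by side. A ratio is log2((refed FPKM + 1)/(fasted FPKM + 1)), which is above 0 where the refed library was higher. The 23235 gene symbols of the tables included 23055 with a usable value in both WT libraries, and the 11932 whose mean FPKM in the pair reached 1 were compared. Rftn1, at a mean FPKM of 1.0007, lay just inside this limit and Nradd, at 0.9987, just outside. The bounds quoted after an FPKM are the deposited lower and upper bound of that library. They cover the estimate within the library and not the difference between mice, and an error given with a ratio is computed from them. The bounds imply about 26415158 fragments in the fasted and 18103888 in the refed library, a relative depth of 0.683 over 9273 well covered genes.

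The libraries had the profile of islets. The 10 most abundant genes held 31.7% of all FPKM in the fasted and 32.7% in the refed library, and they included Ins2, Iapp, Gcg, Ppy, Pyy, Chga and Ins1. All 9 beta, 5 alpha, 3 delta and 2 PP cell markers passed the limit on low values. Of 13 markers of the acinar cells that make digestive enzymes 2 passed, and 4 were listed at 0 in both libraries. Among 7 adipocyte markers 1 passed and 6 were at 0, among 8 lymphocyte markers 2 passed and 5 were at 0, and none of the 4 red cell markers passed. In a bulk sample, fewer cells of a type and less RNA per cell cannot be told apart, and this holds for every gene named below.

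Most transcripts differed little between the feeding states, and of those 2-fold apart more were lower than higher in the refed library. Of the 11932 genes, 9997 (83.8%) lay within 1.5-fold. At least 2-fold apart were 422 genes (3.54%), of which 134 (1.12%) were higher and 288 (2.41%) lower in refed islets. The 4-fold limit was passed by 15 higher and 29 lower genes. Small RNA genes, of which 32 could be compared, made up 13 of the 134 and 5 of the 288. The share of higher genes among those 2-fold apart was 31.8% with the values as deposited and 19.1% after rescaling to a trimmed sum of FPKM, so the balance of the directions depends on the scaling. The deposited bounds of the libraries did not overlap for 7317 genes (61.3%), 3611 higher (30.3%) and 3706 lower (31.1%). At this depth bounds apart are thus the common case, and a list is read against these shares. The median ratio of all genes was 0.0044.

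**Figure D1:**
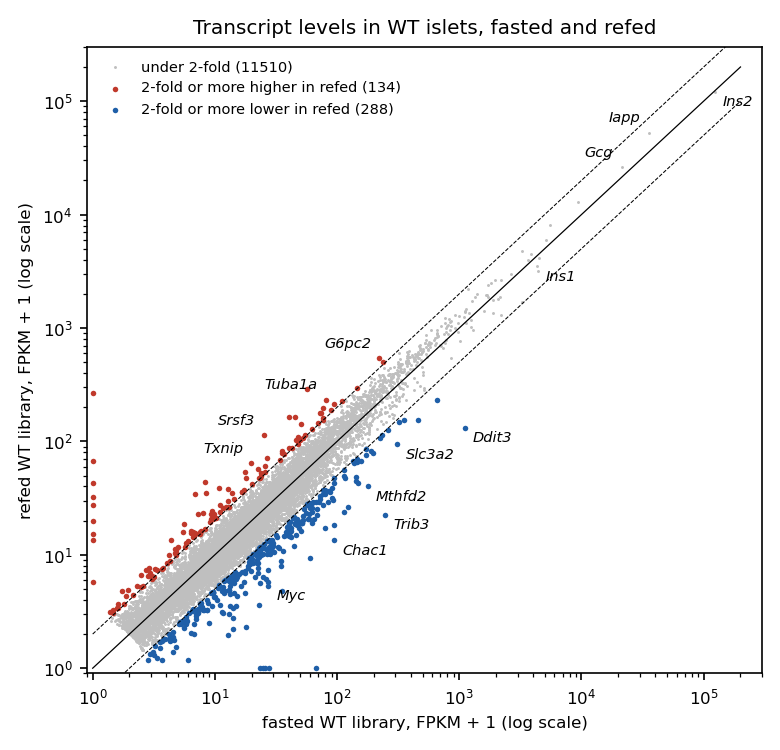
Each point is 1 of 11932 genes, with FPKM + 1 in the fasted WT library on the x axis and in the refed WT library on the y axis, both on log scales; the solid line marks equal levels and the dashed lines a 2-fold difference. The 288 lower and 134 higher genes lie on or beyond the dashed lines, with ratios from -6.06 to 8.07. Trib3, at -3.45, is the lowest of the ranked genes. The points on the left and lower edges are genes listed at 0 in 1 library.

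Among the gene lists compared, the median farthest from 0 was that of the ATF4 stress response, which was lower in refed islets. Of its 20 listed genes 18 could be compared, 15 of them were at least 2-fold lower, 0 were 2-fold higher and all 18 were lower with bounds apart. Their median ratio was -1.57, against 0.0044 for all genes. Trib3 encodes a pseudokinase that restrains AKT and ATF4 and is found on chromosome 2 (152163161 to 152169796 of mouse build mm9). It stood at an FPKM of 245 (bounds 241 to 249.6) in the fasted and 21.6 (19.9 to 23.2) in the refed library, 11.4-fold apart, with a ratio of -3.45 ± 0.05. Ddit3 (chromosome 10, 126727849 to 126733344) encodes the factor CHOP, which acts downstream of ATF4 in prolonged stress. Its level went from an FPKM of 1102 (1086 to 1118) in fasted islets to 131 (125 to 138) in refed islets, a ratio of -3.06 ± 0.04. At 1102, Ddit3 was among the well expressed genes of the fasted library, on a per-length scale above Hsp90b1 at 801 and below Hspa5 at 2085. Atf4 itself, on chromosome 15 at 80085614 to 80087971, stood at 460 (454 to 467) fasted and 153 (148 to 157) refed, a ratio of -1.59 ± 0.02. None of these bounds overlapped.

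The other factors and effectors of that response were spread over a wide range. Cebpb, a dimer partner of ATF4, was at an FPKM of 25.4 fasted and 5.06 refed (ratio -2.12), and Cebpg, another partner, at 51.5 and 19.3 (-1.37). Atf3, a stress-induced repressor, had 13.9 and 2.57 (-2.06), and Atf5 had 321 and 147 (-1.12). The effectors differed as much as the factors. Chac1, which degrades glutathione, stood at 94.2 (90.9 to 97.4) and 12.5 (11.1 to 13.9), a ratio of -2.82 ± 0.08. Ppp1r15a, which encodes GADD34 and recruits the phosphatase of eIF2, had 113 and 22.9 (-2.25), and the translation repressor gene Eif4ebp1 had 147 and 41.6 (-1.80). Secreted products of stressed cells were among the genes of lower level: Gdf15 was at 12.2 and 3.52 (-1.55), Stc2 at 5.36 and 1.03 (-1.65) and Fgf21 at 2.34 and 0.228 (-1.44). The 3 members under 2-fold were Cdsn (-0.87), Nupr1 (-0.76), a stress protein gene with an FPKM of 2192 fasted and 1296 refed, and Ddit4 (-0.42), an inhibitor of mTORC1.

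The binding element of ATF4 and its C/EBP partners was looked for in the promoters of these genes, since it is a feature that the comparison of levels did not use. RefSeq promoter windows of build GRCm38.p6, 250 bases before to 50 after the gene start, were matched to 9515 of the 11932 genes (79.7%). The core searched was TGATGNAA, read on both strands, where N is any base. It was present in 17 of the 219 matched genes that were 2-fold lower (7.76%), in 4 of the 93 that were 2-fold higher (4.30%) and in 248 of all 9515 (2.61%). Over all 32851 windows of the table the share was 3.97%. Among genes whose mean FPKM reached 5 it was 16 of 179 lower (8.94%), 2 of 71 higher (2.82%) and 187 of 7436 in all (2.51%). The stretches around the core are shown for the 10 of these 17 genes that the lists hold, because they belong to the ATF4 response and the pathways around it. Each is 30 bases, 5′ to 3′ on the strand of the gene, with the core in capitals. Where the capitals begin with TT, the core lies on the opposite strand.
Trib3, chr2:152344028-152344057, minus strand: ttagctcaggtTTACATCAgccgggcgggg
Slc1a4, chr11:20332699-20332728, minus strand: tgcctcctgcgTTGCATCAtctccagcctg
Chac1, chr2:119351038-119351067, plus strand: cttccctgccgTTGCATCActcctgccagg
Atf3, chr1:191183425-191183454, minus strand: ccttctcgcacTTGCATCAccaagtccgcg
Yars, chr4:129189895-129189924, plus strand: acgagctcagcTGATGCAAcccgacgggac
Fgf21, chr7:45615611-45615640, minus strand: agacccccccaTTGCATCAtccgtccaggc
Iars, chr13:49682126-49682155, plus strand: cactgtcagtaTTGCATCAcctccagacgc
Vldlr, chr19:27216809-27216838, plus strand: agcagcaatagTTGCATCAgcgctcctagc
Pck2, chr14:55540152-55540181, plus strand: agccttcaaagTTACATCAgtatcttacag
Herpud1, chr8:94386306-94386335, plus strand: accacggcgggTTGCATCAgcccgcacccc

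In Trib3 the first base of the core lay 14 bases past the gene start, in Slc1a4 4 bases before it (-4), in Chac1 at -193, in Atf3 at -110 and in Herpud1 at -112. The core TTGCATCA was thus shared letter for letter by Slc1a4, Chac1, Atf3, Fgf21, Iars, Vldlr and Herpud1 among the 10, and by Yars when read on the other strand, whereas Trib3 and Pck2 had TTACATCA. A match describes these letters and is no binding site by itself. The cAMP response element TGACGTCA was present in 5.02% of the lower, 2.15% of the higher and 3.86% of all matched genes, and the E-box CACGTG in 14.2%, 9.68% and 12.1%. For the forkhead motif GTAAACA, which FoxO factors bind, the shares were 2.74%, 4.30% and 3.12%. They were 2.74%, 1.08% and 1.35% for the sterol element TCACNCCAC, and 1.68%, 1.41% and 1.39% among genes whose mean FPKM reached 5. The CArG box had 2.28%, 3.23% and 1.62%. The remaining motifs searched were UPRE, ERSE, the D-box and the heat shock element. Each was less common in the lower genes than in all matched genes.

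Many amino acid transporters of the plasma membrane were lower in refed islets too. Among 20 compared members of 24, 6 were at least 2-fold lower, 0 were 2-fold higher, 12 were lower and 2 higher with bounds apart, and the median ratio was -0.34. Slc6a9 (chromosome 4, 117507863 to 117541910) encodes the glycine transporter GLYT1 and had an FPKM of 16.9 (16.0 to 17.8) fasted and 1.32 (1.01 to 1.63) refed, a ratio of -2.95 ± 0.10. Slc1a4, which carries alanine, serine and cysteine, went from 34.5 (33.3 to 35.7) to 3.80 (3.32 to 4.28), a ratio of -2.89 ± 0.08. These were the lowest ratios of the list, each beyond 9-fold on the scale of FPKM itself, at 12.8-fold for Slc6a9 and 9.09-fold for Slc1a4. Both chains of the large neutral amino acid exchanger were lower: the light chain gene Slc7a5 had 122 and 25.4 (-2.22), and the heavy chain gene Slc3a2 had 310 and 93.6 (-1.72). Slc7a1, the arginine and lysine transporter CAT1, had 33.6 and 7.83 (-1.97), and Slc38a7 had 35.9 and 13.6 (-1.34). On the other side, Slc38a4 at 75.7 and 114 (0.58) and Slc43a2 at 28.9 and 49.0 (0.74) were higher in refed islets. Slc7a8 (-0.03) and Slc7a2 (0.01) had overlapping bounds, and the cystine transporter gene Slc7a11 was low in both states, at 1.92 and 1.37 (-0.30).

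Enzymes that make serine, one-carbon units and non-essential amino acids were lower as well, though not evenly along the pathway. Of 18 compared members 5 were 2-fold lower, 14 were lower and 2 higher with bounds apart, and the median ratio was -0.74. Gpt2, the mitochondrial alanine aminotransferase, had an FPKM of 22.1 (21.1 to 23.1) fasted and 2.61 (2.20 to 3.03) refed, a ratio of -2.68 ± 0.09. The mitochondrial folate enzyme genes followed, Mthfd2 with 176 and 39.1 (-2.15), Shmt2 with 47.6 and 16.2 (-1.50) and Aldh1l2 with 82.2 and 44.3 (-0.88). Aldh18a1, which starts proline synthesis, had 79.2 and 33.1 (-1.23). The serine synthesis enzymes in the cytosol differed less, with ratios of -0.74 for Phgdh, -0.74 for Psat1 and -0.30 for Psph. Asns, which makes asparagine and is a textbook target of ATF4, had 229 (224 to 233) and 193 (188 to 198), a ratio of -0.25. The cytosolic folate enzyme gene Mthfd1 was on the other side, at 48.7 and 63.9 (0.38).

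Aminoacyl-tRNA synthetases, which load tRNAs with amino acids, split by enzyme. Of the 24 cytosolic synthetase, cofactor and export genes, 6 were 2-fold lower, 16 were lower and 5 higher with bounds apart, and the median ratio was -0.59. The 2-fold lower members were Yars (90.8 fasted and 29.1 refed, -1.61), Mars (89.1 and 30.7, -1.51), Cars (39.7 and 13.6, -1.48), Iars (61.0 and 23, -1.37), Vars (40.5 and 18.6, -1.09) and the tRNA exporter gene Xpot (54.2 and 22.2, -1.25). In contrast, the ratios of Dars (0.48), Rars (0.34), Kars (0.20) and Qars (0.17) were above 0 with bounds apart, as was that of the cofactor gene Aimp2 (0.26). Farsa, Farsb and Hars had overlapping bounds.

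**Figure D2:**
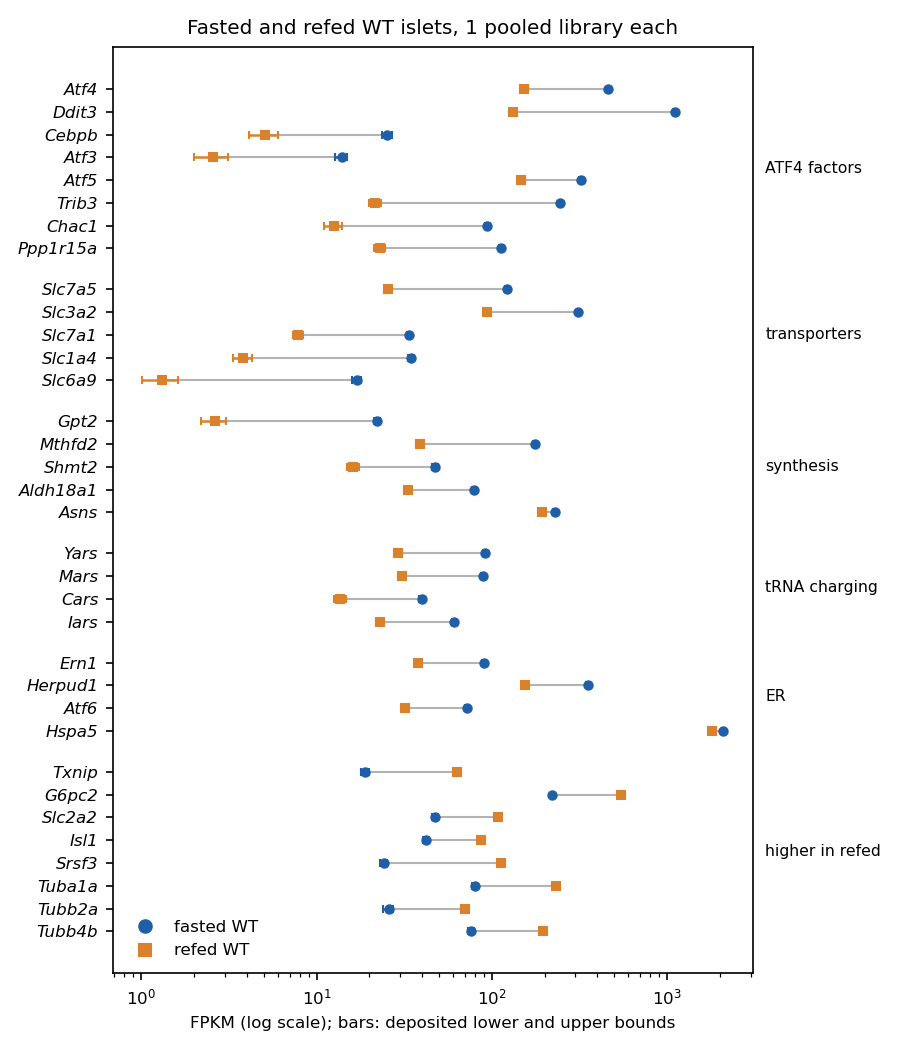
FPKM on a log scale of 34 genes in the fasted (blue circles) and refed (orange squares) WT libraries, 1 pooled library each, with bars to the deposited bounds and genes ordered by role. In the upper 5 blocks each square lies to the left of its circle, from a wide gap for Slc6a9 to a narrow one for Asns and Hspa5, and in the last block the order is the reverse.

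Genes of the endoplasmic reticulum (ER) lay on both sides of 0, with its stress sensors lower and parts of its secretory machinery higher in refed islets. Of 39 ER genes 6 were at least 2-fold lower and 0 higher, while 19 were lower and 16 higher with bounds apart, which gave a median ratio of -0.08. The sensors Ern1, which encodes IRE1, with 90.3 and 37.9 (-1.23), and Atf6, with 71.8 and 31.8 (-1.15), were among the lower genes. So were genes of ER-associated degradation, Herpud1 with 351 and 154 (-1.19), Edem1 with 63.0 and 28.3 (-1.13) and Sel1l with 94.1 and 46.1 (-1.01). Chaperones of high level differed little: Hspa5, which encodes BiP, stood at 2085 (2074 to 2097) and 1809 (1796 to 1822), a ratio of -0.20, and Hsp90b1 at 801 and 892 (0.15). Xbp1 had 249 and 272 (0.12). Subunits of the translocation and signal peptide machinery were higher, such as Ssr2 (239 and 371, 0.63), Sec61g (14.3 and 25.7, 0.80) and Sec11c (369 and 483, 0.39).

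Chaperones of other compartments gave a mixed picture. Among 34 cytosolic heat shock genes 2 were 2-fold lower, the stress-inducible pair Hspa1b, at 9.99 and 2.64 (-1.59), and Hspa1a, at 7.67 and 2.24 (-1.42). The 2 genes are near-identical copies, so the split of fragments between them is uncertain. The constitutive member Hspa8 had 1602 and 1423 (-0.17). Chaperonin subunits were higher, with ratios of 0.61 for Cct3 and 0.53 for Cct6a. In the list of mitochondrial stress, import and protease genes, 3 of 35 were 2-fold lower: the protease gene Lonp1 (187 and 80.8, -1.20), the co-chaperone gene Dnaja3 (112 and 48.5, -1.19) and Nrf1 (23.6 and 9.19, -1.27), a factor for respiratory genes. Hspa9, the mitochondrial HSP70, had 510 and 294 (-0.79), while the import genes Timm17a (0.66) and Timm23 (0.52) were higher.

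Genes of the mature beta cell were on the whole higher in refed islets. Of 28 identity genes 4 were at least 2-fold higher and 0 lower, 17 were higher and 5 lower with bounds apart, and the median ratio was 0.29. The count of 4 became 2 with a pseudocount of 5 and 2 after rescaling to a trimmed sum. G6pc2 (chromosome 2, 69058055 to 69066045) encodes the glucose-6-phosphatase of islets and had an FPKM of 221 (217 to 225) fasted and 542 (534 to 551) refed, a ratio of 1.29 ± 0.02. Slc2a2, which encodes the glucose transporter GLUT2 and lies on chromosome 3 at 28596825 to 28627282, had 47.3 (45.5 to 49.0) and 108 (105 to 111), a ratio of 1.18 ± 0.03. Isl1, a homeobox factor of all islet cell types, had 42.1 and 86.1 (1.02), and Sytl4, which encodes the granule protein granuphilin, had 51.2 and 107 (1.05). Transcription factors of the beta cell did not share 1 direction. Pdx1 had 44.9 and 71.0 (0.65), Pax6 137 and 235 (0.77) and Rfx6 63.8 and 113 (0.82), whereas Nkx2-2 had 60.2 and 53.1 (-0.18), Nkx6-1 85.8 and 85.5 with overlapping bounds, and Mafa 27.7 and 32.8 with overlapping bounds.

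The most abundant hormone transcripts differed by less than 1.5-fold. Ins2, on chromosome 7 at 149864561 to 149865613, stood at an FPKM of 122864 (122586 to 123142) fasted and 121397 (121062 to 121731) refed, a ratio of -0.02, and Ins1 at 4320 and 3498 (-0.30). The insulin genes are close paralogs, and how fragments were split between them is not given in the sources used here. Iapp, which encodes amylin and is secreted with insulin, had 35463 and 52784 (0.57). Of 19 compared hormone and granin genes other than insulin, 1 was 2-fold higher and 1 lower, 10 were higher and 4 lower with bounds apart, and the median ratio was 0.21. Glucagon (Gcg) had 21258 and 26161 (0.30), somatostatin (Sst) 2652 and 2978 (0.17), pancreatic polypeptide (Ppy) 9362 and 12774 (0.45) and peptide YY (Pyy) 5564 and 8058 (0.53). The 2-fold members were both of low level: ghrelin (Ghrl) had 4.71 (3.20 to 6.22) and 1.59 (0.530 to 2.65), and gastrin (Gast) had 0.469 (0 to 1.01) and 2.06 (0.686 to 3.43), with overlapping bounds.

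Granule cargo genes lay within 2-fold, and 1 exocytosis gene passed it on each side. Over all genes 3.54% were 2-fold apart, so such counts do not set lists of this size apart. None of 17 prohormone processing and granule cargo genes was 2-fold apart, and 7 were higher and 9 lower with bounds apart. The convertase gene Pcsk1, which begins proinsulin cleavage, had 91.6 and 153 (0.73) and Pcsk2 1117 and 1379 (0.30), while the carboxypeptidase gene Cpe had 2145 and 1886 (-0.19). Among 27 exocytosis genes Syt4, a synaptotagmin, was 2-fold lower (137 and 63.3, -1.10) and Sytl4 2-fold higher. The calcium sensor gene Syt7 had 86.0 and 71.4 (-0.26). Ion channel genes leaned the other way from the identity genes, with 5 of 27 higher, 15 lower with bounds apart and a median ratio of -0.17. The median length of their longest transcripts was 7274 bases, and all genes from 6262 bases up also had a median ratio of -0.17. The part of length in the ion channel ratios was not tested. Abcc8 and Kcnj11, which encode the ATP-sensitive potassium channel, had ratios of -0.49 and -0.35, and the calcium channel genes Cacna1d and Cacna1c -0.61 and -0.64. The potassium channel gene Kcnk16, which encodes TALK-1, was higher, at 157 and 243 (0.63).

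Receptors that tune secretion lay on both sides of 0, in shares near those of all genes. Of 46 compared receptor and cAMP genes 2 were 2-fold higher and 1 was 2-fold lower. With bounds apart 15 were higher and 12 lower, beside 30.3% and 31.1% of all genes. The median ratio of the list was 0.05, which became -0.05 with a minimum mean FPKM of 5 and -0.01 after rescaling to a trimmed sum. Vipr2, a receptor for vasoactive intestinal peptide and PACAP, had 12.2 (11.5 to 13.0) and 2.50 (2.08 to 2.92), a ratio of -1.92 ± 0.10. Galr1, a receptor for the inhibitory peptide galanin, had 8.56 and 20.4 (1.16), and the lipid receptor gene Gpr119 had 6.63 and 15.1 (1.08). The incretin receptor genes did not stand apart, with Glp1r at 112 in both libraries and Gipr at 12.7 and 14.9, both with overlapping bounds. The inhibitory adrenergic receptor gene Adra2a was lower, at 25.4 and 12.5 (-0.97).

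Glucose-responsive genes were not of 1 direction. Txnip, which encodes a thioredoxin inhibitor and is the best known target of ChREBP and MondoA, is found on chromosome 3 (96361880 to 96365780). It stood at an FPKM of 18.9 (17.8 to 20) fasted and 63.4 (61.1 to 65.8) refed, a ratio of 1.69 ± 0.05. Its relative Arrdc4, another direct target, was lower, at 7.63 (6.69 to 8.56) and 5.08 (4.32 to 5.84), a ratio of -0.51 ± 0.12, whereas Arrdc3 was higher, at 12.6 and 23.7 (0.86). Mlxipl, which encodes ChREBP, had 62.8 and 58.9 (-0.09), Pklr 13.4 and 14.4 (0.10, bounds overlapping) and Fasn 12.8 and 11.4 (-0.16). In the list of 22 compared targets 3 were 2-fold higher, namely Txnip, G6pc2 and Slc2a2, and 3 were 2-fold lower, Bhlhe40 (-1.27), Tgfb1 (-1.10) and Klf11 (-1.05). Its median ratio of 0.06 turned to -0.04 after rescaling to a trimmed sum.

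Mitochondrial energy genes were mostly higher, by small amounts. Of 55 oxidative phosphorylation genes 0 were 2-fold apart, 52 were higher and 0 lower with bounds apart, and the median ratio was 0.48. The range ran from -0.08 for Atp5d to 0.91 for Ndufa4, which had an FPKM of 319 fasted and 598 refed. Cycs, the mobile electron carrier cytochrome c, had 19.3 and 35.2 (0.84). The larger core subunits were nearer to 0, with ratios of 0.17 for Atp5a1, 0.03 for Uqcrc1 and 0.34 for Sdhb. Among 34 pyruvate and TCA cycle genes 24 were higher and 3 lower with bounds apart, and the median ratio was 0.35. Idh1, the cytosolic isocitrate dehydrogenase, was 2-fold higher (23 and 52.1, 1.15) and Pck2, the mitochondrial PEPCK, was 2-fold lower (85.0 and 35.8, -1.23). Fumarase (Fh1) had 77.2 and 148 (0.93), while citrate synthase (Cs) had 68.3 and 67.3 with overlapping bounds.

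In glycolysis, 11 of 23 genes were higher and 5 lower with bounds apart, with a median ratio of 0.22. Gapdh had 277 and 366 (0.40) and the pyruvate kinase gene Pkm2 353 and 436 (0.30). The 2-fold lower members were Eno2, the neuronal and endocrine enolase (56.9 and 19.5, -1.50), and Slc2a1, the glucose transporter GLUT1 (23 and 8.91, -1.28). GLUT1 and GLUT2 transcripts thus stood on opposite sides. None of 35 fatty acid oxidation genes was 2-fold apart, beside 3.54% of all genes, and 12 were higher and 8 lower with bounds apart. Their median ratio of 0.00 moved to -0.02 with no filter on low values and to -0.10 after rescaling to a trimmed sum. Cpt1a, the carnitine transferase that limits the pathway, had 28.1 (27.1 to 29.1) and 17.5 (16.5 to 18.4), a ratio of -0.66 ± 0.05. Its inner membrane partner Cpt2 had 38.2 and 57.3 (0.57), the dehydrogenase gene Acadm 15.9 and 22.6 (0.48), and Pdk4, which restrains pyruvate oxidation, 11.2 and 10.8 with overlapping bounds.

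Lipid synthesis genes did not pass 2-fold in either direction. Over all genes 3.54% did, so this does not set lists of this size apart. Of 28 cholesterol synthesis and uptake genes 13 were higher and 8 lower with bounds apart, and the median ratio was 0.18. Ebp, a sterol isomerase gene, had 14.7 and 27.3 (0.84) and Idi1 4.35 and 7.40 (0.65), while Sqle had 97.7 and 76.6 (-0.35) and the regulator Srebf2 21.6 and 17.4 (-0.30). Of 21 fatty acid and triglyceride synthesis genes 7 were higher and 8 lower with bounds apart. Srebf1, at 19.8 and 27.3 (0.44), and Acly, which makes cytosolic acetyl-CoA, at 451 and 575 (0.35), were higher. Dgat1, which completes triglycerides, at 13.4 and 10.9 (-0.27), and the desaturase gene Fads1, at 20.2 and 11.4 (-0.78), were lower.

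Ribosomal protein and proteasome genes were mostly higher in refed islets, while genes of ribosome assembly and translation factors were not. Of 80 cytosolic ribosomal protein genes 76 were higher and 1 lower with bounds apart, at a median ratio of 0.41. Rpl36a was the 1 member past 2-fold (88.8 and 189, 1.08), and many of these genes have processed copies that can share fragments, so single values are uncertain. Of 38 proteasome genes 34 were higher and 2 lower with bounds apart, none past 2-fold, at a median ratio of 0.52, led by Psmd6 (78.9 and 147, 0.89). Ribosome biogenesis genes did not follow the ribosomal proteins, with 9 of 41 higher, 18 lower with bounds apart and a median ratio of -0.09. Within that list Nop56 (36.0 and 55.6, 0.61) and Polr1b (9.42 and 6.56, -0.46) stood apart. Translation factors gave 20 higher and 15 lower of 42, and their median ratio of 0.06 became -0.04 after rescaling to a trimmed sum. Pabpc1, the poly-A binding protein, was 2-fold lower (234 and 113, -1.05), Eef2 had 1899 and 1354 (-0.49) and the helicase gene Eif4a1 106 and 182 (0.77).

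**Figure D3:**
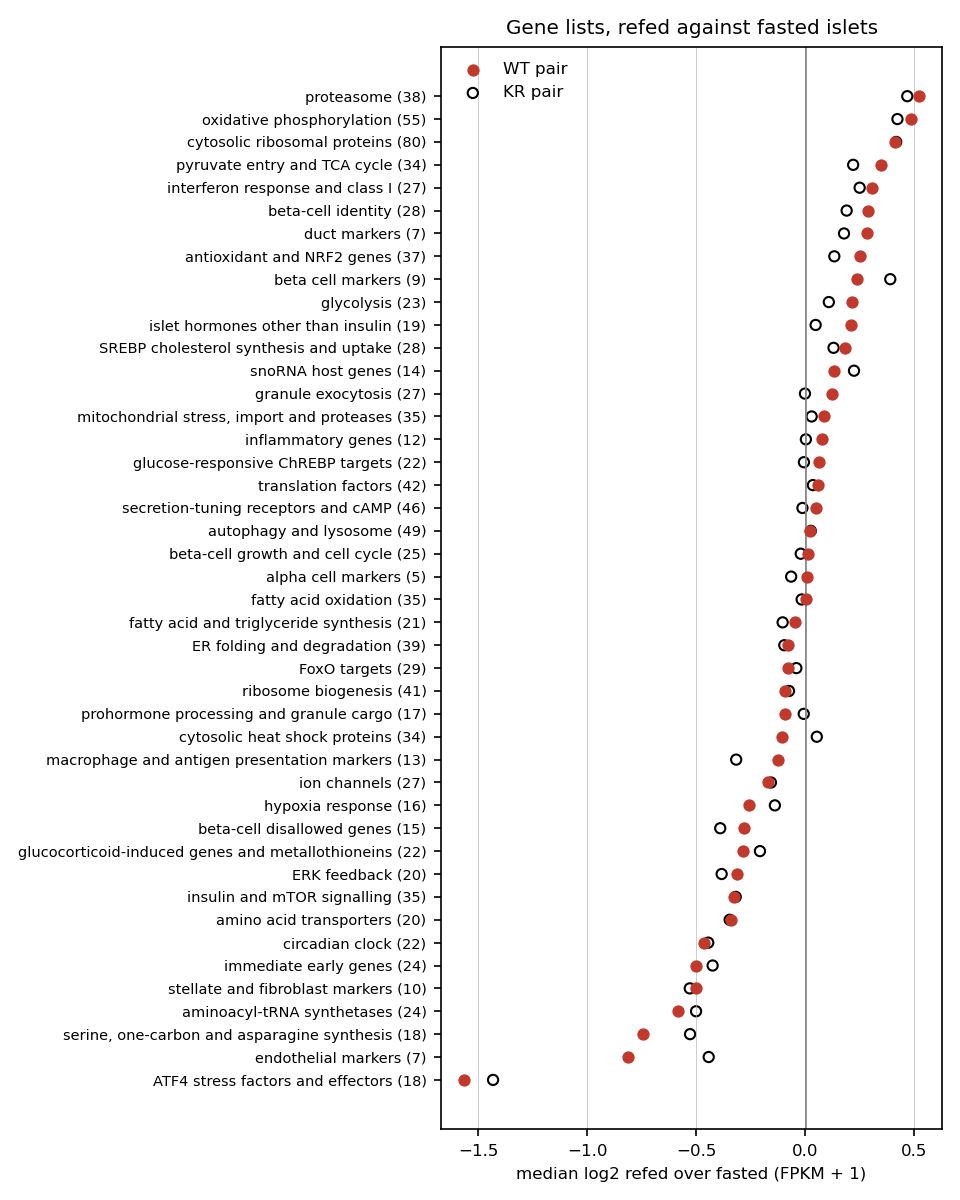
Median log2 ratio, refed over fasted, of each gene list with 5 or more compared members (their number in brackets), for the WT pair (filled red) and the KR pair (open), ordered by the WT median. The WT medians run from -1.57 for the ATF4 list to 0.52 for the proteasome, and most open circles lie close to the filled ones.

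The ratio also followed transcript length. A length, that of the longest annotated transcript, was found for 10786 of the compared genes (90.4%). In the eighth with the shortest transcripts, 96 to 1520 bases, the median ratio was 0.26, with 56 genes 2-fold higher and 20 lower. It was 0.0022 in the fourth and -0.17 in the last, from 6262 bases, where 2 genes were 2-fold higher and 34 lower. Across genes the Spearman correlation of length with the ratio was -0.27, as a description. The 2-fold higher genes had a median length of 1643 bases and the 2-fold lower ones 3512, against 3373.5 for all. Ribosomal protein genes had a median length of 1059, oxidative phosphorylation genes 1232 and proteasome genes 1895 bases. Within the shortest eighth, whose median was 0.26, the 32 oxidative phosphorylation genes had a median ratio of 0.51, the 56 ribosomal protein genes 0.44 and the 14 proteasome genes 0.61. The ATF4 stress list, at a median length of 2008, had a median ratio of -1.57, and the eighth of 1521 to 2166 bases had 0.11. The part of transcript length in the ratios of these lists was not tested.

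**Figure D4:**
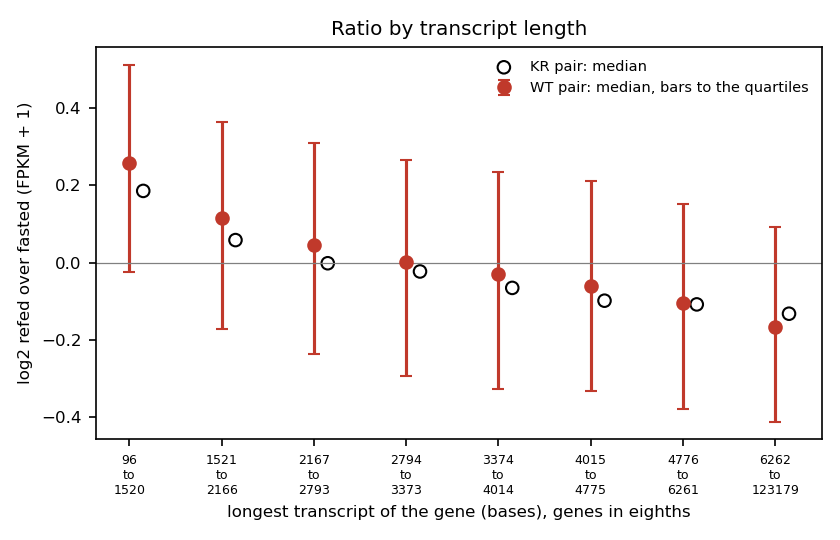
Median log2 ratio of genes in eighths by the length of their longest transcript, for the WT pair (filled red, bars from the lower to the upper quartile) and the KR pair (open). The WT median goes from 0.26 in the shortest to -0.17 in the longest eighth, and the quartile ranges of all eighths overlap.

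Insulin and growth signalling genes were mostly lower in refed islets. Of 35 genes of the insulin and mTOR pathway 5 were 2-fold lower and 0 higher, 24 were lower and 2 higher with bounds apart, and the median ratio was -0.33. The 5 were Sesn2, a leucine sensor that restrains mTORC1 (75.1 and 26.5, -1.47), the folliculin partner Fnip2 (57.5 and 22.1, -1.34), Igf1r (20.9 and 7.93, -1.30), the receptor adaptor Grb10 (27.1 and 11.9, -1.12) and the lysosomal GTPase Rragd (78.2 and 36.3, -1.08). The insulin receptor gene Insr had 13.5 and 7.40 (-0.79), Irs2 8.03 and 4.44 (-0.73), Akt2 61.9 and 33.2 (-0.88) and Irs1 2.22 and 1.96 with overlapping bounds. Foxo1, which encodes the factor altered in KR mice, had 17.4 (16.7 to 18.2) and 18.8 (17.9 to 19.6), also with overlapping bounds. FoxO target genes did not share 1 direction, with 8 of 29 higher, 13 lower with bounds apart and a median ratio of -0.08. Egr1 was 2-fold higher (1.30 and 4.34, 1.22). Gadd45a (61.2 and 25, -1.26) and Bcl6 (4.79 and 1.84, -1.03) were 2-fold lower. Sesn1 (11.9 and 22.5, 0.86), Ccng2 (11.3 and 20.1, 0.78) and Cdkn1a (46.5 and 77.3, 0.72) were higher.

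Early response genes that growth factors and calcium induce were mostly lower after 6 h of refeeding. Of 24 compared immediate early genes 16 were lower and 4 higher with bounds apart, at a median ratio of -0.50. Myc, on chromosome 15 at 61816896 to 61821916, had 26.4 (25.1 to 27.8) and 4.35 (3.68 to 5.02), a ratio of -2.36 ± 0.10. Egr1 was the exception past 2-fold, at 1.30 (1.03 to 1.56) and 4.34 (3.76 to 4.93), a ratio of 1.22 ± 0.11, and Nr4a2 was higher too, at 0.747 and 1.99 (0.77). Genes that report or limit ERK signalling gave 0 higher and 10 lower of 20 with bounds apart, with 4 past 2-fold. These were Areg, the EGF receptor ligand amphiregulin (11.7 and 0.963, -2.70), the phosphatase genes Dusp4 (11.9 and 2.00, -2.11) and Dusp8 (11.1 and 4.94, -1.03), and Spry2 (8.76 and 3.25, -1.20).

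Clock genes were lower or had overlapping bounds in every case. Of 22 compared members 15 were lower and 0 higher with bounds apart, 6 were 2-fold lower, and the median ratio was -0.46. The 6 were Nfil3, a repressor of D-box genes (26.4 and 4.75, -2.25), Gm129, which encodes the repressor CHRONO (13.2 and 2.41, -2.06), Bhlhe40 (14.2 and 5.34, -1.27), Cry1 (17.6 and 6.98, -1.22), Per2 (6.60 and 2.38, -1.17) and Hlf (5.63 and 2.30, -1.01). The core activator genes had overlapping bounds, with 20 and 19.8 for Clock and 7.01 and 6.50 for Arntl. The hour of collection is not given in the sources used here, so time of day and feeding state cannot be told apart. Genes that glucocorticoids or metals induce leaned lower as well, with 12 of 22 lower and 3 higher with bounds apart. Mt1 had 4405 and 3186 (-0.47), Mt2 3280 and 1707 (-0.94), the zinc exporter gene Slc30a1 10.7 and 4.20 (-1.18), and Fkbp5 45.2 and 29.1 (-0.62).

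Other stress programmes each had a few genes apart. Among 49 autophagy and lysosome genes 16 were higher and 15 lower with bounds apart, near the shares of all genes (30.3% and 31.1%). Mcoln1, a lysosomal calcium channel (49.3 and 18, -1.41), and the autophagy receptor Optn (26.5 and 10.5, -1.26) were 2-fold lower. The list median of 0.02 turned to -0.08 after rescaling to a trimmed sum. The receptor gene Sqstm1, which encodes p62, had 861 and 547 (-0.65). Antioxidant genes were mostly higher, 22 of 37 with bounds apart against 7 lower, and yet the best known member, the haem oxygenase gene Hmox1, was 2-fold lower (142 and 43.6, -1.68) while Nqo1 was 2-fold higher (4.79 and 11.6, 1.12). Of 16 hypoxia genes 10 were lower and 4 higher with bounds apart, and Vegfa had 183 and 126 (-0.54). Of 15 compared genes that beta cells normally keep low, 7 were lower and 2 higher with bounds apart. Their median ratio was -0.28, and Ldha, at 5.76 and 4.91, had overlapping bounds.

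Interferon-induced genes were mostly higher in refed islets. Of 27 compared members 4 were 2-fold higher and 0 lower, 17 were higher and 2 lower with bounds apart, and the median ratio was 0.31. The count of 4 became 0 with a pseudocount of 5 and 2 after rescaling to a trimmed sum. Oasl2 had 1.75 (1.45 to 2.05) and 6.28 (5.58 to 6.97), a ratio of 1.40 ± 0.10, Usp18 8.84 and 22.0 (1.22), Irgm1 9.10 and 20.2 (1.07) and Ifit1 3.02 and 7.38 (1.06). These are interferon-induced genes of low to middling level. Class I presentation genes of higher level differed less, with 239 and 279 for B2m (0.23) and 360 and 319 for H2-D1 (-0.18). The NF-kappaB subunit genes Nfkb2 (-0.72) and Nfkb1 (-0.53) were lower and the inhibitor gene Nfkbia was higher (12.7 and 16.7, 0.37), while the cytokine feedback genes Socs2 (0.88) and Cish (0.82) were higher and Socs3 (-0.60) lower. Growth genes gave 8 higher and 8 lower of 25 with bounds apart, near the shares of all genes (30.3% and 31.1%). Ccnd2, the main D cyclin of beta cells, had 135 and 77.4 (-0.80) and Ccnd1 37.3 and 45.8 (0.29).

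The genes of highest ratio, taken by rank among those whose mean FPKM reached 5 and whose bounds lay apart, included many of other functions. Srsf3, a splicing factor on chromosome 17 at 29169605 to 29180317, led them with 24.1 (22.9 to 25.3) fasted and 113 (109.6 to 116) refed, 4.68-fold apart and a ratio of 2.18 ± 0.04. Tppp3, a tubulin polymerization factor, had 7.42 and 33.7 (2.04), and the defensin gene Defb1 44.3 and 162 (1.84). Upp1, which cleaves uridine, had 16.6 and 52.7 (1.61), and the mitochondrial carrier gene Sfxn2 11.9 and 36.7 (1.55). The noncoding RNA gene Rn4.5s, which is not counted among the small RNA genes above, also ranked among them, with wide bounds and a ratio of 2.05 ± 0.54. Among the lowest 20, members of no list were Steap1, a metalloreductase (59.6 and 8.46, -2.68), Akna (13.1 and 1.23, -2.66), the lipid transfer gene Stard5 (93.9 and 17.4, -2.36), Rasgef1b (13.1 and 1.77, -2.34), the glycogen-binding Stbd1 (78.5 and 16.1, -2.22) and the kinase gene Plk3 (33.7 and 7.01, -2.11).

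Families that recur among these genes were tallied after their values were seen, so their counts carry no weight beyond description. Of 12 compared alpha and beta tubulin genes 7 were 2-fold higher and 0 lower, 11 were higher with bounds apart, and the median ratio was 1.04. Tuba1a had 79.7 and 232 (1.53), Tubb2a 25.7 and 70.2 (1.41), Tubb4b 76.2 and 196 (1.35) and Tuba4a 72.6 and 176 (1.26), and the 12 genes summed to an FPKM of 563 fasted and 1192 refed. Tubb5 was level, at 96.1 and 96.5 (0.01). Gamma tubulins and their complex, which seed microtubules, were not higher, with a median ratio of -0.29 over 7 genes and 1 gene, Tubg2, 2-fold lower (21.1 and 9.86, -1.02). Of 15 H2B histone genes of cluster 1, 9 were 2-fold higher and 0 lower, with a median ratio of 1.11, and Hist1h2bc, the most abundant, had 71.6 and 175 (1.28). Over all 49 compared histone genes, these included, 15 were 2-fold higher, 27 had overlapping bounds and the median ratio was 0.77. Members of the tubulin and of the H2B family are alike in sequence, so the split of fragments among them is uncertain, and H2B transcripts at a median of 524 bases fall in the shortest eighth. The libraries were made after poly-A selection, and the part of that step in the histone ratios was not tested. Of 11 SR splicing factors, Srsf3 alone was 2-fold higher, 7 were higher and 2 lower with bounds apart, and Srsf4 was lower (38.2 and 23.4, -0.69). Also tallied were dynein light chains (median ratio 0.60), mitochondrial ribosomal proteins (0.31), hnRNP genes (0.20) and kinesins (-0.06).

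Some markers of cells other than endocrine cells differed between the feeding states. Of 10 endothelial markers 7 were compared, 6 were lower and 0 higher with bounds apart, 1 was 2-fold lower, and the median ratio was -0.82. That median ran from -1.24 with a pseudocount of 0.1, where 4 were 2-fold lower, to -0.12 with a minimum mean FPKM of 5, where 0 were. Sums in this paragraph cover all listed markers with a usable value, also those under the limit on low values. The summed FPKM of the endothelial markers was 32.5 fasted and 21.7 refed, and the defining gene Cdh5, VE-cadherin, had 2.82 and 0.816 (-1.07). Of 12 stellate cell and fibroblast markers 10 were compared, 7 were lower and 1 higher with bounds apart, and the sum was 70.2 and 43.0. The collagen genes Col1a1 (4.80 and 1.46, -1.24) and Col1a2 (6.27 and 2.12, -1.22) were 2-fold lower, whereas Acta2, of contractile cells, had 4.41 and 6.67 (0.50). Of 15 macrophage and antigen presentation markers 13 were compared, 4 were lower and 0 higher with bounds apart, and the sum was 366 and 321. Cd74 had 36.2 and 19.0 (-0.90), and Csf1r, a defining gene, 4.87 and 4.84. In that list the median ratio of -0.13 became 0.03 with a minimum mean FPKM of 5. Of 10 duct markers 7 were compared, 5 were higher and 0 lower with bounds apart, at sums of 830 and 1073, with Krt8 at 75.5 and 160 (1.07), while Sox9 and Cftr lay under the limit on low values. Which cells the transcripts of the duct list came from was not tested. Of 13 acinar markers the 2 compared were both higher with bounds apart, and the sum was 39.4 and 55.7. The part of these cells in the ratios of other genes was not tested.

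The same contrast in KR islets, from other mice and libraries, can be laid beside the WT pair. The KR pair was less even in depth, with about 25718949 implied fragments in the fasted and 11079100 in the refed library. Its 10 most abundant genes held 20.5% of all FPKM fasted and 41.9% refed, and Ins2 had no usable value in the fasted KR library. The part of these differences in the KR ratios was not tested. Of 11774 genes compared in both pairs, 125 were 2-fold higher in refed WT and 64 (0.544%) in refed KR, and 44 were so in both, which is 35.2% of the WT and 68.8% of the KR genes. Lower were 282 in WT and 199 (1.69%) in KR, with 169 in both, or 59.9% and 84.9%. Among the WT genes, 123 of the 125 and 280 of the 282 had a KR ratio of the same sign, as had 10108 (85.9%) of all 11774. Their median ratio was 1.14 in WT and 0.89 in KR for the higher genes, and -1.25 and -1.06 for the lower ones. Since these genes were chosen for a large ratio in WT, a smaller ratio in KR does not show a weaker response there. Across the 11774 genes the Pearson correlation of the ratios was 0.845 and the Spearman correlation 0.879, which describes genes that share a library in each pair and carries no test. Trib3 had an FPKM of 201 fasted and 22.3 refed in KR (-3.12), Ddit3 735 and 117 (-2.64), Txnip 24.0 and 90.5 (1.87), G6pc2 366 and 776 (1.08) and Srsf3 27.9 and 95.0 (1.73). The median ratio of the ATF4 list was -1.43 in KR, and all 18 members had the sign they had in WT, beside the 85.9% of all genes. For the identity genes the median was 0.19, for oxidative phosphorylation 0.42 and for ribosomal proteins 0.42. The WT sign was kept in KR by 52 of 55 oxidative phosphorylation and 79 of 80 ribosomal protein genes. Only 21 of 28 identity genes kept it, a lower share than the 85.9% of all genes. Ghrl stood at 3.22 and 3.18 in KR (-0.02), and Arrdc4 was at 5.79 and 6.39 (0.12).

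**Figure D5:**
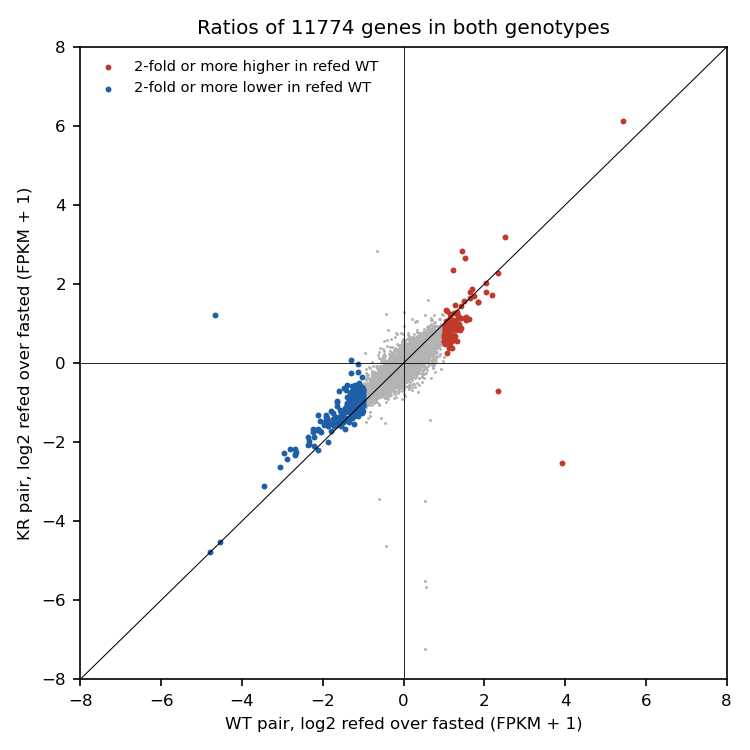
Log2 ratio, refed over fasted, of 11774 genes in the WT pair (x axis) and the KR pair (y axis), with the genes 2-fold or more apart in WT in colour and a line of equal ratios. Of the coloured genes 123 of 125 higher and 280 of 282 lower ones lie in the quadrants of equal sign.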

How the data were processed

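RNA of pooled islets was sequenced after poly-A selection and a TruSeq preparation, per the labels' protocols. The submitters' processing notes name bcl2fastq 1.8.4, TopHat2 2.0.4 and the mouse build mm9. The authors deposited FPKM per gene, each value with its status and 2 bounds, per the file headers. Which program and annotation made the FPKM, and by which totals, is not given in the sources used here. Coordinates are those of mm9 in the deposited tables, counted from 1, except those printed with sequences, which are RefSeq's on GRCm38.p6. The start was raised by 1, since 479 of 487 microRNA rows then spanned the length of their RefSeq hairpin.

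Rows of 1 symbol were summed, only values with the status OK in both WT libraries were used, and genes needed a mean FPKM of at least 1. The log2 ratio used a pseudocount of 1, so it understates the difference of low genes. Standard errors were taken as the distance from FPKM to bound divided by 2. The implied fragments behind the depth are the squared ratio of FPKM to that error. With 1 library per group there was no test; counts at 2-fold and counts with bounds apart are given, beside the same over all genes. Transcript lengths came from GENCODE and promoters from RefSeq, whose windows hold 300 bases. The 51 gene lists, and the comparison itself, were chosen with earlier results of these data known. Genes named are the 20 highest and 20 lowest ratios with bounds apart at a mean FPKM of at least 5 (microRNA, small nucleolar RNA and predicted genes left out), the 10 most abundant genes, preset members of the lists and list members 2-fold apart; further list members are named as examples chosen after their values were seen. A few genes under this rule are not reported here. The scripts (Python 3.11.15, pandas 2.3.3, numpy 2.4.6, matplotlib 3.10.9) were tested on simulated data. Alternatives were other pseudocounts, filters, scalings, thresholds and ways of joining rows.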

Additional observations from a re-analysis of the deposited data

Results flagged for a closer look

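Over all 11932 compared genes, 26 were higher in the refed library of 1 genotype and lower in that of the other with bounds apart in both pairs. Of these, 3 are among the ranked genes, the most abundant ones or the preset list members. Genes named only as 2-fold list members or as examples were not looked up among the 26. The 3 are given here because each genotype's single pair went the opposite way. The difference between the genotypes was not tested, since each pair holds 1 library a side.

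Ins1, which encodes insulin I, had a ratio of -0.30 in WT, from an FPKM of 4320 (4291 to 4348) fasted to 3498 (3467 to 3529) refed. In KR its ratio was 0.61, from 7966 (7928 to 8005) to 12196 (12122 to 12271). The refed KR library thus held the highest and the refed WT library the lowest of the 4 levels. Ins2, which encodes insulin II, had no usable value in the fasted KR library, so no KR ratio stands beside its WT ratio of -0.02. Gcg, which encodes glucagon, had a ratio of 0.30 in WT, from 21258 to 26161, and of -0.07 in KR, from 26030 to 24882. The fasted WT library stood below the other three for this gene. Hspa8, the constitutive cytosolic HSP70, had a ratio of -0.17 in WT, from 1602 to 1423, and of 0.19 in KR, from 1203 to 1373. All 3 genes are abundant, so their deposited bounds are narrow, and those bounds cover the estimate within a library and not the spread between mice.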

How the results depend on the processing

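The counts of 134 higher, 288 lower and 213 genes 2-fold apart in the same direction in both genotypes depended on the pseudocount and the threshold. They were 251, 438 and 332 with a pseudocount of 0.1, 54, 142 and 109 with a pseudocount of 5, and 826, 1109 and 1148 at a 1.5-fold threshold. After rescaling to a trimmed sum of FPKM 87 were higher and 369 lower. The other settings (no filter, a minimum mean FPKM of 5, the median of ratios, the row of highest FPKM kept, small RNA genes left out, bounds apart required) stayed within 1.5 times of the counts. With a pseudocount of 5 the 2-fold counts of the glucose-responsive (3), interferon (4), hypoxia (3), ERK (4), clock (6) and identity lists (4) became 0, 0, 1, 2, 2 and 2. List medians changed sign with no filter for inflammatory genes (-0.027), fatty acid oxidation (-0.019) and growth genes (-0.0027). With a minimum mean FPKM of 5 they did so for macrophage (0.033), Schwann cell and neuron (0.864) and lymphocyte markers (-0.017), receptors (-0.047) and growth genes (-0.028), and with the median of ratios for fatty acid oxidation (-0.0034). After the trimmed sum they did so for glucose-responsive targets (-0.038), fatty acid oxidation (-0.101), translation factors (-0.045), autophagy and lysosome (-0.081), mitochondrial stress (-0.016), receptors (-0.010), growth (-0.070) and inflammatory genes (-0.0093) and alpha cell (-0.077) and lymphocyte markers (-0.015). The cause was not tested. A change of pseudocount, filter or threshold cannot turn the sign of a gene's ratio. Only the rescalings and the joining of rows could do so. The sign was followed for 186 genes, namely the ranked genes, the most abundant ones and the preset list members. Of these, the 162 with bounds apart kept their sign after the rescalings and with rows joined the other way. After the trimmed sum, 3 of the 24 with overlapping bounds changed sign. The median of the ATF4 list stayed between -1.79 and -1.27. No paired analysis was possible because each group has 1 library and no test was made. Without replicate libraries, the spread between mice is unknown, and the refed library is the shallower one in each genotype.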
